A study of Mus musculus with 6 samples.

Results

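Matrix metalloproteinases (Mmp), their relatives with thrombospondin repeats (Adamts) and the tissue inhibitors of metalloproteinases (Timp) were examined in heart ventricles of dystrophic mice fed finerenone, a non-steroidal antagonist of the mineralocorticoid receptor. Members were all genes whose platform annotation gave a single symbol of the Mmp, Adamts or Timp pattern. This gave 44 of 30142 named genes, with 22 Mmp, 18 Adamts and 4 Timp genes, each measured by 1 transcript cluster.

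The finerenone group held 3 male mice that had been given chow with 100 ppm finerenone since they were 4 weeks old. The untreated group held 3 males that ate that chow without drug. All 6 mice were on the C57BL/10 background, lacked dystrophin (mdx) and had a single utrophin allele (utrn+/-), and all were 20 weeks old when ventricular tissue was taken. No heart with dystrophin was among the arrays used here, so the comparison is between treated and untreated disease. The labels call the animals biological replicates and describe random assignment, with 1 Affymetrix array per mouse.

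Both protease families are zinc enzymes that are made as inactive precursors and cut the proteins outside cells. MMPs as a group can degrade most matrix components, with the gelatinase Mmp2 and the membrane-anchored Mmp14 well known from fibroblasts. ADAMTS enzymes include versican- and aggrecan-cutting proteases (Adamts1, Adamts4, Adamts5, Adamts9), procollagen N-proteinases (Adamts3, Adamts14) and the von Willebrand factor protease Adamts13. The 4 TIMPs bind active MMPs, and Timp3, which is held in the matrix, also inhibits several ADAMTS and ADAM enzymes. In heart the balance of these enzymes and inhibitors is known for its part in remodelling after injury.

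Each value below is a log2 signal from the authors' RMA summary, where a difference of 1 is a doubling, and differences are finerenone minus untreated. Over transcript clusters the 6 arrays correlated between 0.989 and 0.994, and their medians ran from 4.43 to 4.48. The array of untreated replicate 1 had the lowest weight when limma estimated array quality (0.687). Negative control probe sets, told by their names, had medians of 5.04 to 5.33 across arrays, and their 95th percentile was at most 8.73. The median over all named genes was 4.94, so a level below the controls does not show that a transcript was absent. The 8 cardiomyocyte markers were all far above the negative controls, among them Myl2 (12.55 in treated and 12.41 in untreated hearts) and Myh6 (19.62 in treated and 19.64 in untreated hearts). Their mean per array ran from 17.42 to 17.53 in treated and from 17.39 to 17.57 in untreated hearts.

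Of the 44 members, 18 averaged above the highest median of the negative controls (40.9%, against 44.9% of all genes), and 7 averaged above their 95th percentile (15.9%, against 16.8% of all genes). The 7 were Timp2, Timp3, Timp4, Mmp2, Adamts1, Adamts5 and Adamts9. All 4 Timp genes were above the control medians, against 6 of 22 Mmp and 8 of 18 Adamts genes. A further 25 members averaged below the lowest control median, 15 of them Mmp and 10 of them Adamts genes, and Mmp28 lay between these bounds at 5.27. Values of the dim members carry little information on whether a transcript was present. Signals of different probe sets are not amounts and were not ranked against each other.

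**Figure D1:**
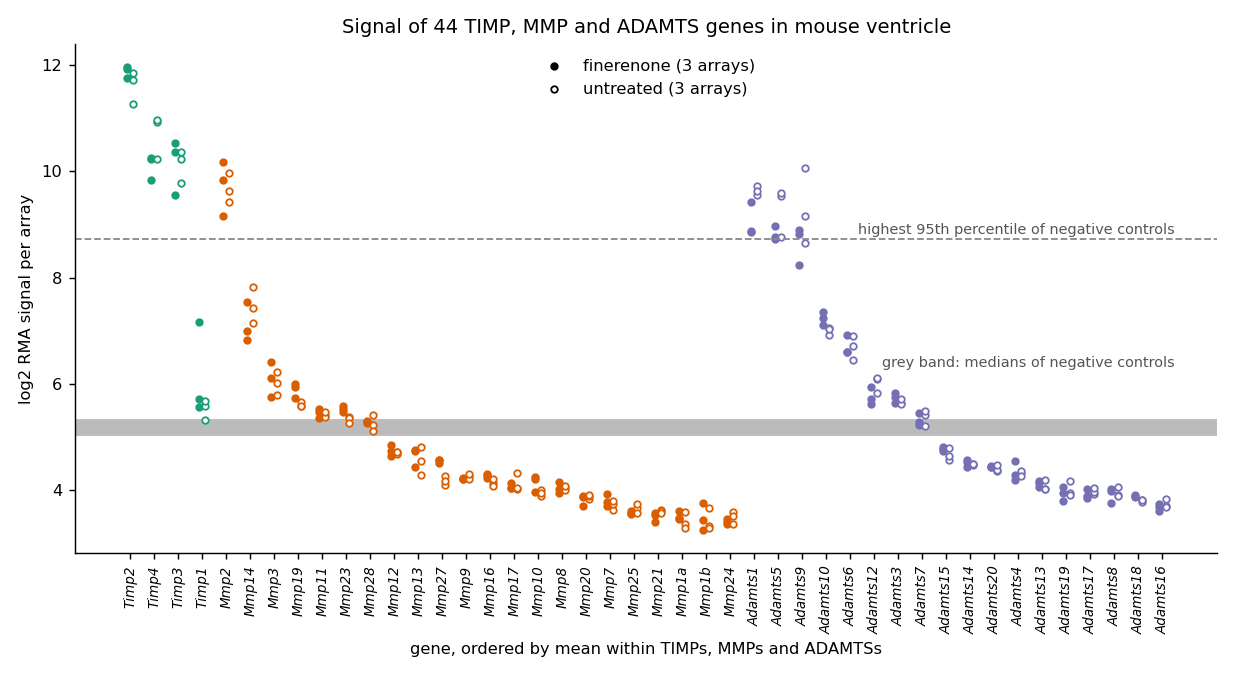
Log2 RMA signal of the 44 genes in each array, with finerenone arrays as filled and untreated arrays as open points, grouped as TIMPs (green), MMPs (orange) and ADAMTSs (purple). The grey band spans the medians of the negative controls (5.04 to 5.33) and the dashed line is their highest 95th percentile (8.73), above which 7 genes averaged.

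Treated and untreated hearts were compared with limma over all 30142 genes. No member passed an adjusted p of 0.05 (0 of 44), and neither did any other gene (0% of all genes called, smallest adjusted p = 0.597). At an unadjusted p below 0.05 there were 6 of 44 members, against 7.81% of all genes. Without finerenone replicate 3 it was 2 members against 9% of all genes, and it was 3 members without finerenone replicate 2 (5.61% of all genes) or without untreated replicate 1 (6.43%). The 6 were Mmp27, Mmp19, Mmp23 and Adamts10 with positive differences (background 5.69%) and Adamts1 and Timp4 with negative ones (background 2.12%). The 3 treated and 3 untreated values did not overlap for 8 of 44 members, against 12.4% of all genes. Those were Mmp27, Mmp19, Mmp23, Mmp16, Adamts10 and Adamts18, all higher in treated hearts (background 8.17%), and Adamts1 and Mmp21, both lower (background 4.18%). By sign alone 27 members were higher (58.2% of all genes) and 17 lower (41.8% of all genes), where the 27 include Mmp8 at 0.00. The median was 0.03, as it was over all genes, and lay between 0.01 and 0.03 when single arrays were left out. A difference of at least 0.5 in size was seen for 4 members (Timp1, Timp4, Adamts1 and Adamts9), and 3.7% of all genes reached that size.

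Among the inhibitors, 2 genes differed by about as much in opposite directions and the remaining pair by less. Timp4, the TIMP best known from heart muscle, had 9.84, 10.24 and 10.23 in treated hearts, against 10.92, 10.23 and 10.96 in untreated hearts. Untreated replicate 2 lay inside the treated range, and the other untreated arrays lay above every treated one. The means were 10.10 ± 0.23 in treated and 10.70 ± 0.41 in untreated hearts (n = 3 per group, SD), a difference of -0.60 ± 0.22 (SE; limma adjusted p = 0.611). Leaving out single arrays gave -0.84 to -0.47.

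Timp1, the inducible inhibitor that inflamed and injured tissue releases, had 5.73, 5.57 and 7.16 in treated hearts, against 5.33, 5.60 and 5.68 in untreated hearts. Finerenone replicate 3 alone stood high, and the other 5 arrays lay between 5.33 and 5.73. The mean difference of 0.62 ± 0.41 (SE; limma adjusted p = 0.764) was 0.11 without that array. Timp1 was also the only inhibitor near the negative controls.

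Timp2, which inhibits MMPs and also helps Mmp14 to activate pro-Mmp2 at the cell surface, had 11.92, 11.96 and 11.76 in treated hearts, against 11.72, 11.85 and 11.26 in untreated hearts. The groups overlapped, and untreated replicate 3 was the lowest array. Its difference of 0.27 ± 0.16 (SE; limma adjusted p = 0.745) was 0.09 without that array. Timp3, the matrix-bound inhibitor, had 9.56, 10.36 and 10.53 in treated hearts, against 10.36, 9.78 and 10.23 in untreated hearts. Both groups spanned similar values, with a difference of 0.03 ± 0.28 (SE; limma adjusted p = 0.994) that became negative after quantile normalization (-0.04). In the RefSeq annotation Timp1, Timp3 and Timp4 overlap the synapsin genes Syn1, Syn3 and Syn2. Those neuronal genes had 4.21 to 4.29 (Syn1), 3.89 to 4.04 (Syn3) and 5.33 to 5.43 (Syn2) in treated hearts, against 4.18 to 4.27, 3.92 to 4.12 and 5.29 to 5.43 in untreated hearts, with differences of 0.03, -0.04 and 0.03.

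**Figure D2:**
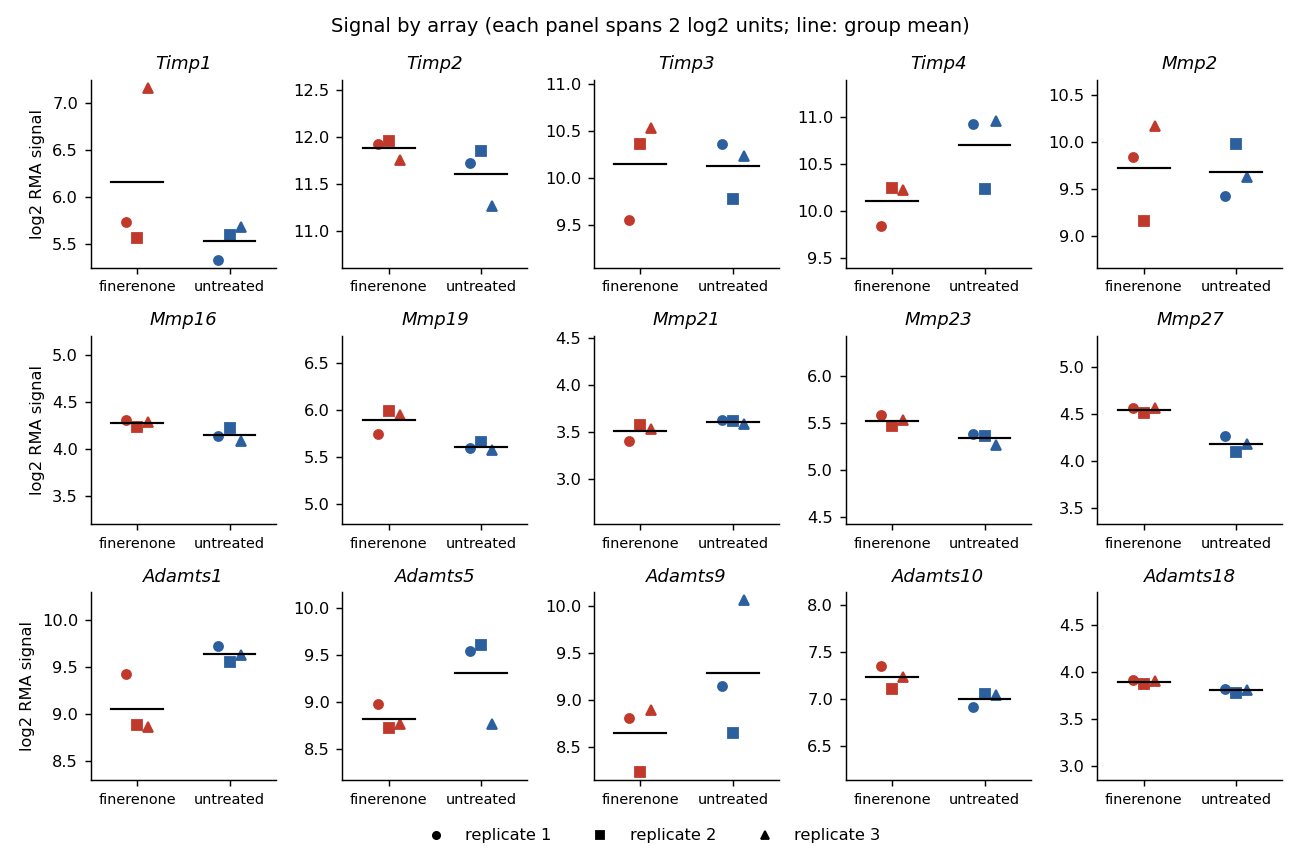
Log2 RMA signal of 15 genes in each array, finerenone (red) left and untreated (blue) right, with the replicate number as the marker and the group mean as a line; every panel spans 2 log2 units. The groups do not overlap in Adamts1, Adamts10, Adamts18, Mmp16, Mmp19, Mmp21, Mmp23 and Mmp27, and in Timp1 the treated mean of 6.15 rests on replicate 3 at 7.16.

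Of the MMPs, the gelatinase Mmp2 gave a clear signal, and its groups overlapped fully. It had 9.83, 9.15 and 10.17 in treated hearts, against 9.43, 9.97 and 9.62 in untreated hearts. The treated arrays held both the highest and the lowest value, and the difference was 0.04 ± 0.28 (SE; limma adjusted p = 0.988). Leaving out single arrays moved it between -0.18 (without finerenone replicate 3) and 0.33 (without finerenone replicate 2).

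Mmp14, the membrane-type MMP that activates pro-Mmp2 and cuts fibrillar collagen, had 7.54, 6.99 and 6.83 in treated hearts, against 7.15, 7.83 and 7.44 in untreated hearts. The groups overlapped, with a difference of -0.35 ± 0.24 (SE; limma adjusted p = 0.765). It was -0.18 without untreated replicate 2, -0.21 without finerenone replicate 3 and -0.56 without finerenone replicate 1. Mmp3 (stromelysin), a product of activated fibroblasts that can activate other MMPs, had 6.12, 5.75 and 6.42 in treated hearts, against 5.79, 6.23 and 6.03 in untreated hearts. Its difference was 0.08 ± 0.19 (SE). Mmp2 and Mmp3 placed the 6 arrays in the same order, from finerenone replicate 3 at the top through untreated replicate 2 to finerenone replicate 2 at the bottom. That order was shared by 25 of 30142 genes, and 5 other pairs of members also shared an order (Mmp12 and Timp3, Mmp27 and Adamts18, Mmp28 and Adamts13, Mmp11 and Adamts14, Adamts8 and Adamts19). Mmp14 and Mmp3 were described after their values were seen, as were the other members outside the naming rule that are given with values.

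Mean signal of the 9 measured fibroblast markers was 11.13, 10.66 and 10.99 in treated hearts, against 10.75, 11.08 and 10.61 in untreated hearts. Their summed linear signal ran from 275003 to 324599 in treated and from 219829 to 318758 in untreated hearts, with 71.1% to 79.8% and 75.6% to 80% of it from Dcn (decorin), and no marker lay below the negative control medians. The array order differed from that of Mmp2 and Mmp3, with finerenone replicate 1 highest and untreated replicate 3 lowest. Of these markers 6 had positive and 3 negative differences (58.2% and 41.8% of all genes), with a median of 0.15. At an unadjusted p below 0.05 there were 0 of 9 (background 7.81%). That median was 0.25 when finerenone replicate 2 was left out and 0.09 for finerenone replicate 3, 0.23 for untreated replicate 2 and 0.03 for untreated replicate 3, and 0.06 after quantile normalization or cyclic loess. Dpt (dermatopontin) had the smallest p, with a difference of 0.52 ± 0.27 (SE; limma adjusted p = 0.693), followed by Fap, the fibroblast activation protein, at 0.17 ± 0.11. In whole ventricle, fewer cells of a type and less RNA per cell cannot be told apart, and the part of cell numbers in the values of Mmp2 and Mmp3 was not tested.

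Mmp19, an MMP found in vessels and macrophages that is also a basement membrane protease, had 5.75, 5.99 and 5.95 in treated hearts, against 5.60, 5.66 and 5.58 in untreated hearts. All treated arrays lay above all untreated ones. The difference was 0.28 ± 0.09 (SE; limma adjusted p = 0.597) and stayed between 0.23 and 0.36 with single arrays left out. Mmp23, a small MMP anchored in the membrane by its N-terminal end, had 5.58, 5.47 and 5.54 in treated hearts, against 5.38, 5.37 and 5.27 in untreated hearts. These groups did not overlap either, with a difference of 0.19 ± 0.08 (SE; limma adjusted p = 0.640). Both genes overlap another protein-coding gene in RefSeq, and those neighbours differed by -0.07 (Tmem198b, beside Mmp19) and -0.04 (Mib2, beside Mmp23).

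The largest ratio of difference to error among the members was in Mmp27. This gene of the stromelysin group had 4.57, 4.52 and 4.57 in treated hearts, against 4.27, 4.10 and 4.18 in untreated hearts. The difference of 0.37 ± 0.08 (SE; limma adjusted p = 0.597, unadjusted p = 0.00303) stayed between 0.33 and 0.41 when each array was dropped in turn. All 6 values nonetheless lay below the negative control median of their array. Mmp16, a membrane-type MMP, and Mmp21, a secreted MMP known from left-right patterning of the embryo, were as dim. Mmp16 had 4.31, 4.23 and 4.28 in treated hearts, against 4.13, 4.22 and 4.09 in untreated hearts, and Mmp21 had 3.41, 3.57 and 3.53 against 3.63, 3.61 and 3.58. Their differences were 0.13 ± 0.08 and -0.10 ± 0.08 (SE), with groups that barely separated, and that of Mmp21 was -0.06 without finerenone replicate 1.

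The leukocyte MMPs Mmp8, Mmp9, Mmp12 and Mmp25 averaged below the negative control medians, which does not show that they were absent. Mmp8, the neutrophil collagenase, averaged 4.05 ± 0.10 in treated and 4.05 ± 0.04 in untreated hearts (n = 3 per group, SD). Mmp9, the gelatinase of neutrophils and macrophages, averaged 4.22 ± 0.004 and 4.26 ± 0.05. Mmp12, the macrophage elastase, averaged 4.75 ± 0.10 in treated and 4.71 ± 0.02 in untreated hearts, and Mmp25, a neutrophil membrane-type MMP, averaged 3.59 ± 0.03 and 3.66 ± 0.09. Of 10 neutrophil markers, Camp, Ltf, Mpo and Elane lay below the control medians, and the list's summed signal ran from 316 to 458 in treated and from 285 to 616 in untreated hearts. Its smallest p values were those of Ltf, with a difference of 0.13 ± 0.09 (SE), and Cxcr2, with -0.16 ± 0.12. All 12 macrophage and monocyte markers averaged above the control medians over the 6 arrays. Their summed signal ran from 64982 to 113538 in treated and from 41263 to 68680 in untreated hearts, of which Lyz2 alone made up 87.8% to 91.3% in treated and 83.5% to 87.7% in untreated hearts. The mean log2 signal of the list ran from 8.76 to 9.12 in treated and from 8.49 to 8.87 in untreated hearts. All 12 differences were positive (58.2% of all genes), 3 of them at an unadjusted p below 0.05 (background 5.69%). Their median was 0.28, with 0.41 without finerenone replicate 2, 0.14 when finerenone replicate 1 was left out and 0.16 when untreated replicate 3 was. Ccr2, a monocyte chemokine receptor, differed by 0.51 ± 0.14 (SE) and Fcgr1, a high-affinity IgG receptor, by 0.60 ± 0.20 (limma adjusted p = 0.597 and 0.604). The part of macrophage number in the values of Mmp19 or Timp1 was not tested.

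Of the Mmp genes, 10 lie side by side on chromosome 9 with no other protein-coding gene among them in RefSeq, in the order Mmp13, Mmp12, Mmp1b, Mmp3, Mmp1a, Mmp10, Mmp8, Mmp27, Mmp20 and Mmp7. Only Mmp3 of these averaged above the negative control medians. The difference was positive for 8 of the 10, with 0.37 in Mmp27 at the top, 0.00 in Mmp8 and -0.05 in Mmp20, the enamel protease, and the median was 0.08. Over all genes 56.8% had a positive difference by the same count, which takes sizes below 0.005 as 0. The interstitial collagenase Mmp13, known for cutting fibrillar collagen, had 4.76, 4.44 and 4.74 in treated hearts, against 4.81, 4.55 and 4.29 in untreated hearts. Mmp10, a second stromelysin, averaged 4.14 ± 0.15 in treated and 3.96 ± 0.06 in untreated hearts (n = 3 per group, SD), a difference of 0.19 ± 0.10 (SE; limma adjusted p = 0.707).

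MMP promoters of this cluster are known for an element bound by AP-1, the Fos and Jun dimer, close upstream of a TATA box. RefSeq promoter windows of GRCm38.p6, from 250 bases before to 50 bases after a start, were available for 30 of 44 members, some with several starts. The letters TGANTCA, which read alike on both strands, were present for 8 of the 10 cluster genes and for 0 of 20 other members, while 7.81% of 32851 windows hold them. The TATA letters TATAAA, on either strand, were present for 9 of 10 cluster genes and for 2 of 20 others (Adamts1 and Mmp21), against 13.6% of windows. The GC box GGGCGG, on either strand, was present for 0 of 10 cluster genes and 16 of 20 others, against 35.7% of windows. These counts are of genes and the shares are of windows. By window, 8 of 33 member windows held TGANTCA, 11 held TATAAA and 16 held GGGCGG. Windows of the cluster were 37.7% to 52.0% G and C, and those of the other members 53.3% to 80.0%. A match of these letters is a description and not a measured binding site.

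Shown are the 120 bases before the start, 5′ to 3′, with TGANTCA and TATAAA matches in capitals, for 4 cluster genes that hold both, for the neighbours Mmp8 and Mmp27, which hold neither in this stretch, and for Adamts1 and Timp4, the members with negative differences at an unadjusted p below 0.05.
Mmp3, chr9:7445702-7445821, plus strand: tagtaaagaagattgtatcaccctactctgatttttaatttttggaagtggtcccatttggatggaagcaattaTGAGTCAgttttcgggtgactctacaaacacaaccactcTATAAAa
Mmp10, chr9:7502222-7502341, plus strand: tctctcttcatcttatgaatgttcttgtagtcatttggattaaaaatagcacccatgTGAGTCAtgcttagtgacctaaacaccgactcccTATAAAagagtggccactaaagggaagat
Mmp13, chr9:7272394-7272513, plus strand: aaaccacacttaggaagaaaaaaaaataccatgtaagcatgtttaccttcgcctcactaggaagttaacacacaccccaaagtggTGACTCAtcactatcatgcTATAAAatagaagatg
Mmp7, chr9:7691970-7692089, plus strand: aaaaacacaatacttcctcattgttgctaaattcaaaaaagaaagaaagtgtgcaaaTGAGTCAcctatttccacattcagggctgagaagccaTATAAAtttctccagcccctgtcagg
Mmp8, chr9:7558309-7558428, plus strand: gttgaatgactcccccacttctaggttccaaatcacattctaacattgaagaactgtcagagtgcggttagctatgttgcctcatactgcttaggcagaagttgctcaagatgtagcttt
Mmp27, chr9:7571276-7571395, plus strand: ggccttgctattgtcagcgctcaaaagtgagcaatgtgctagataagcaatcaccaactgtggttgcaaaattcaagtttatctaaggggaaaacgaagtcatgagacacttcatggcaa
Adamts1, chr16:85803114-85803233, minus strand: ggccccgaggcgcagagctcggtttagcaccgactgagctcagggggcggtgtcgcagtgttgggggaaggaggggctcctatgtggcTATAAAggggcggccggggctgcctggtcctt
Timp4, chr6:115252206-115252325, minus strand: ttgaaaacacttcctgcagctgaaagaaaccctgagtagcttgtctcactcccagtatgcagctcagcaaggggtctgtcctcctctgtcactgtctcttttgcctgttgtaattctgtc

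In the sequences shown, the AP-1 letters began 35 to 63 bases before the start (Mmp13 at -35, Mmp3 at -46, Mmp10 and Mmp7 at -63) and the TATA letters 7 to 29 bases before it. The 4 genes shown with both motifs differed between the groups by 0.08 (Mmp3), 0.19 (Mmp10), 0.10 (Mmp13) and 0.08 (Mmp7). Cluster genes with both motifs that are not shown differed by 0.04 (Mmp12), 0.11 (Mmp1a), 0.06 (Mmp1b) and -0.05 (Mmp20). Of the neighbours with neither in the stretch shown, Mmp8 differed by 0.00 and Mmp27 by 0.37. The palindrome of AGAACA, any 3 bases and TGTTCT, to which mineralocorticoid and glucocorticoid receptors bind, was in 0 of the 33 member windows and in 3 of all 32851. That these letters are absent from these windows says nothing of the receptor elsewhere. Its half-site AGAACA, on either strand, was present for 5 of 30 members (Mmp7, Mmp10, Mmp11, Mmp12 and Mmp23). By window it was in 7 of the 33 member windows, while 19% of all windows hold it.

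**Figure D3:**
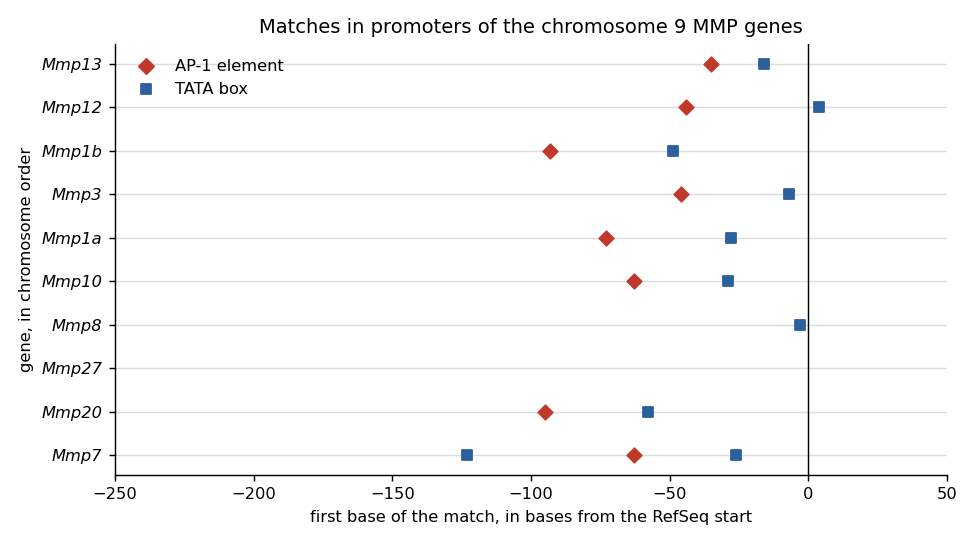
Position of the first base of TGANTCA (AP-1, red diamonds) and TATAAA (blue squares, either strand) in promoter windows of the 10 chromosome 9 MMP genes, in bases from the RefSeq start at 0, with all starts of a gene on 1 line. In 8 genes an AP-1 match lies before the start, and Mmp8 and Mmp27 have none.

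Among the ADAMTS proteases, the 3 genes above the 95th percentile of the negative controls all had lower means in treated hearts. Adamts1, a versican- and aggrecan-cutting protease that is also known to restrain angiogenesis, had 9.42, 8.88 and 8.86 in treated hearts, against 9.73, 9.55 and 9.63 in untreated hearts. All treated arrays lay below all untreated ones, with finerenone replicate 1 closest to them. The means of 9.05 ± 0.32 in treated and 9.64 ± 0.09 in untreated hearts (n = 3 per group, SD) gave a difference of -0.58 ± 0.17 (SE, 0.668-fold; limma adjusted p = 0.597). Leaving out single arrays kept it between -0.77 and -0.48.

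Adamts5, the aggrecanase that also clears versican, had 8.97, 8.72 and 8.76 in treated hearts, against 9.54, 9.60 and 8.77 in untreated hearts. Untreated replicate 3 lay inside the treated range, and the other untreated arrays above it. The difference was -0.48 ± 0.23 (SE; limma adjusted p = 0.671), and -0.75 without that array. Adamts9, a versican protease of developing heart and vessels, had 8.82, 8.23 and 8.90 in treated hearts, against 9.15, 8.66 and 10.06 in untreated hearts. Here untreated replicate 3 was the high array, and the difference of -0.64 ± 0.37 (SE; limma adjusted p = 0.727) was -0.26 without it. The array that set the size of the Adamts9 difference was thus the one that narrowed it in Adamts5. In RefSeq 3 measured non-coding genes overlap Adamts9, and they differed by -0.31 (A730049H05Rik), -0.37 (Gm15737) and -0.32 (9530026P05Rik), with only 9530026P05Rik above the control medians.

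Adamts10, a protease known for fibrillin microfibrils, lay the other way. It had 7.35, 7.11 and 7.23 in treated hearts, against 6.92, 7.05 and 7.04 in untreated hearts, and the groups did not overlap. The difference was 0.23 ± 0.09 (SE; limma adjusted p = 0.636), from 0.17 to 0.29 with single arrays left out. Adamts12, a protease of cartilage oligomeric matrix protein, had 5.94, 5.73 and 5.63 in treated hearts, against 6.09, 6.11 and 5.83 in untreated hearts, a difference of -0.24 ± 0.12 (SE). Adamts6, a relative of Adamts10, averaged 6.71 ± 0.17 in treated and 6.69 ± 0.22 in untreated hearts (n = 3 per group, SD). The procollagen N-proteinase Adamts3 averaged 5.74 ± 0.10 and 5.66 ± 0.04, and Adamts7 averaged 5.32 ± 0.12 and 5.38 ± 0.15.

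The other 10 Adamts genes averaged below the negative control medians. Adamts18 was the only one of them whose groups did not overlap, with 3.92, 3.87 and 3.90 in treated hearts, against 3.83, 3.78 and 3.82 in untreated hearts and a difference of 0.09 ± 0.07 (SE). The remaining 9, Adamts4, Adamts8, Adamts13, Adamts14, Adamts15, Adamts16, Adamts17, Adamts19 and Adamts20, had differences from -0.08 in Adamts19 to 0.10 in Adamts15. Adamts4, an inducible aggrecanase, averaged 4.35 ± 0.19 in treated and 4.33 ± 0.05 in untreated hearts (n = 3 per group, SD). Of the MMPs not yet described, Mmp11 and Mmp28 differed by 0.03 each, and Mmp1a, Mmp1b, Mmp7, Mmp17 and Mmp24 had differences between -0.08 and 0.11.

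**Figure D4:**
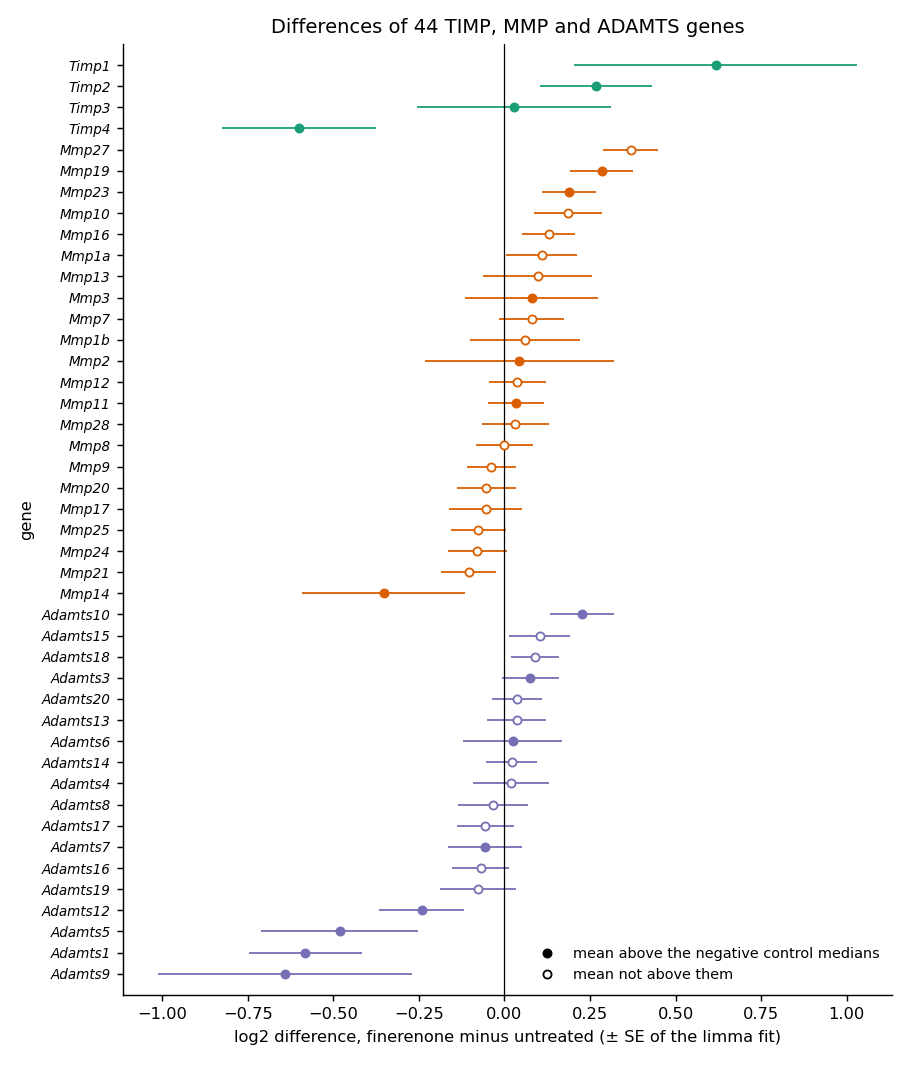
Log2 difference, finerenone minus untreated, of each of the 44 genes with the SE of the limma fit, in the order TIMPs, MMPs and ADAMTSs. Filled points average above the medians of the negative controls, and the 4 differences of at least 0.5 in size belong to Timp1, Timp4, Adamts1 and Adamts9.

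The median differences of the endothelial and of the smooth muscle and pericyte markers were negative. Adamts1, Adamts5, Adamts9 and Timp4 are set beside them as members that were also lower, so the shared direction follows from that choice. Mmp19, also found in vessels, lay the other way at 0.28. The mean of 8 measured endothelial markers was 11.56, 11.57 and 11.42 in treated hearts, against 12.28, 11.55 and 11.89 in untreated hearts, and 0 of 8 lay below the control medians. All 8 differences were negative (41.8% of all genes). Their median was -0.33, with -0.16 without untreated replicate 1 and -0.50 without untreated replicate 2. Of the 8, 1 had an unadjusted p below 0.05 (Kdr, background 2.12% for lower genes). Their summed signal ran from 37338 to 44358 in treated and from 44712 to 87097 in untreated hearts. Kdr, the VEGF receptor 2, differed by -0.86 ± 0.27 and Cdh5, VE-cadherin, by -0.73 ± 0.31 (SE; limma adjusted p = 0.597 and 0.640). Of 8 smooth muscle and pericyte markers 7 were negative (41.8% of all genes), with a median of -0.12. Their summed signal of 73152 to 79541 in treated and 61697 to 107116 in untreated hearts came for 84.6% to 88.6% and 84% to 89.5% from Rgs5. The median was -0.28 without untreated replicate 2, -0.24 after quantile normalization and -0.08 without untreated replicate 1. Pdgfrb, a pericyte receptor, differed by -0.55 ± 0.16 and Tagln by -0.43 ± 0.25 (limma adjusted p = 0.597 and 0.731), and Cnn1 lay below the control medians. Mast cell markers, 4 of 6 negative (41.8% of all genes), had a summed signal of 408 to 893 in treated and 489 to 1054 in untreated hearts. Mcpt4 differed by -0.44 ± 0.33 and Ms4a2, below the control medians, by 0.15 ± 0.12. The mast cell median of -0.10 was -0.16, -0.17 and 0.02 when finerenone replicate 1, 2 or 3 was left out. It was 0.00, 0.00 and -0.39 when untreated replicate 1, 2 or 3 was, and 0.01 with array weights. Of the cardiomyocyte markers 5 of 8 were positive (58.2% of all genes), with Ryr2 at -0.20 ± 0.28 and Myl2 at 0.14 ± 0.20. The part of vessel cell number in the values of Adamts1, Adamts5, Adamts9 and Timp4 was not tested.

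**Figure D5:**
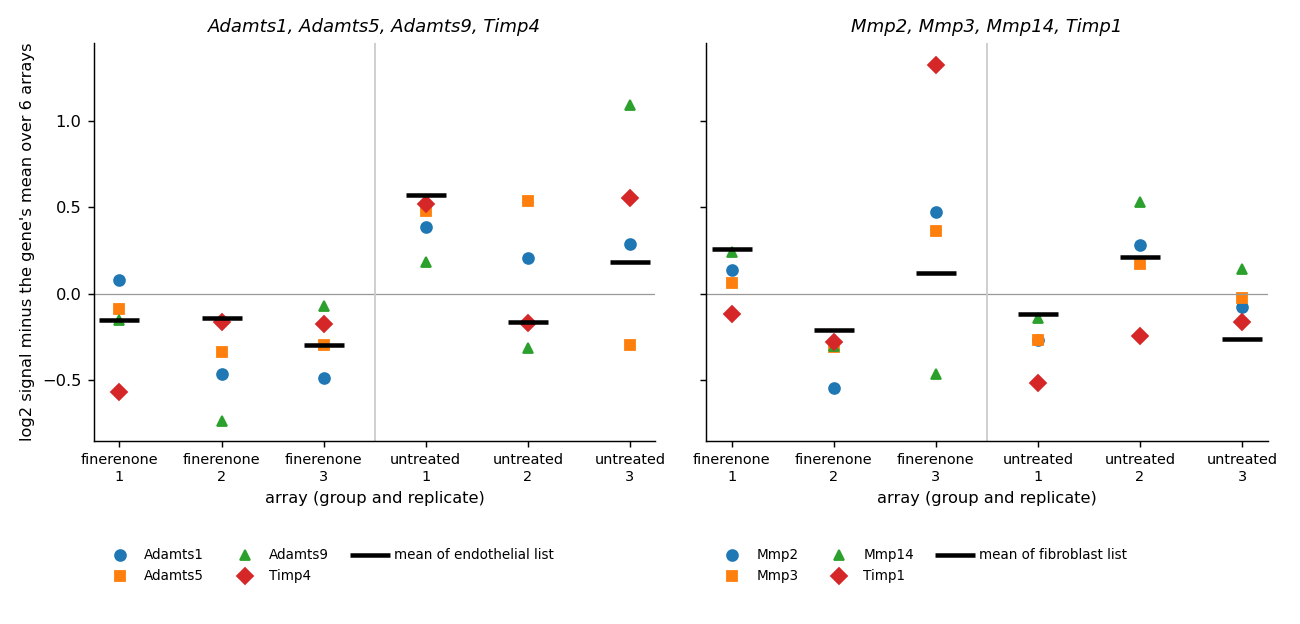
Log2 signal of each array minus the gene's mean over the 6 arrays, for Adamts1, Adamts5, Adamts9 and Timp4 with the mean of the endothelial markers (left), and for Mmp2, Mmp3, Mmp14 and Timp1 with the mean of the fibroblast markers (right). Untreated replicate 1 is highest for the endothelial mean (12.28), Adamts9 peaks in untreated replicate 3 (10.06), and Timp1 in finerenone replicate 3 (7.16).

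Other genes of matrix turnover were read from 7 lists, and 0 of their genes passed the adjusted threshold in limma. Procollagen processing had 12 of 14 measured genes with positive differences (58.2% of all genes) and a median of 0.13. An unadjusted p below 0.05 was reached by 4 of 14, all 4 positive (background 5.69%). Pcolce2, an enhancer of procollagen C-proteinase, had 8.85, 8.87 and 8.90 in treated hearts, against 8.72, 8.50 and 8.53 in untreated hearts, a difference of 0.29 ± 0.09 (SE). P4ha1, a collagen prolyl hydroxylase subunit, differed by 0.37 ± 0.13, the crosslinking enzyme Lox by 0.28 ± 0.10 and Pcolce by 0.27 ± 0.11. The list's mean per array was 7.14 to 7.20 in treated and 7.03 to 7.07 in untreated hearts. Its median was 0.09 without untreated replicate 1. The adjusted p of these 4 genes was 0.597 to 0.626 in limma.

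Substrates of the proteases had 9 of 16 positive differences (58.2% of all genes). Col4a2, a basement membrane collagen chain, had 8.97, 8.15 and 8.30 in treated hearts, against 9.19, 9.03 and 9.15 in untreated hearts, a difference of -0.65 ± 0.21 (SE; limma adjusted p = 0.597). Biglycan (Bgn), a small proteoglycan, had a difference of 0.36 ± 0.17. Groups did not overlap for 3 of the 16 (Col4a2, Bgn and Comp), against 12.4% of all genes. Versican (Vcan), the substrate shared by Adamts1, Adamts5 and Adamts9, had 7.32, 6.77 and 7.37 in treated hearts, against 6.94, 6.98 and 7.08 in untreated hearts, a difference of 0.15 ± 0.17.

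The ADAM list had 7 of 10 negative differences (41.8% of all genes), with Adam10, a sheddase, at -0.28 ± 0.11 and Adam9 at 0.19 ± 0.08 (SE; limma adjusted p = 0.613 and 0.625). Groups did not overlap for 3 of the 10 (Adam10 lower, Adam9 and Adam33 higher), against 12.4% of all genes. Other protease inhibitors had 6 of 11 positive (58.2% of all genes). Of these, Serpinb6a at 0.30 ± 0.07 and Wfdc1 at 0.38 ± 0.15 had the smallest p, and Serpina3n had the largest difference at 0.57 ± 0.53. In the plasminogen activator list 5 of 9 were positive (58.2% of all genes), with 0 of 9 at an unadjusted p below 0.05 (background 7.81%). Groups did not overlap for 3 of the 9 (Plgrkt and Plau higher, Plg lower), against 12.4% of all genes. Plau (urokinase), which can start MMP activation through plasmin, differed by 0.18 ± 0.10 and Plgrkt by 0.27 ± 0.13. Activators and partners of MMPs had 7 of 11 negative (41.8% of all genes), among them the convertase Pcsk7 at -0.16 ± 0.10 and Pcsk5 at -0.13 ± 0.10. Furin, which activates Mmp14, had -0.12 ± 0.14, and Reck, a membrane inhibitor of MMPs, had 0.08 ± 0.17. Of the ADAMTS-like proteins 3 of 7 were positive (58.2% of all genes), with Adamtsl5 at 0.16 ± 0.15 and Adamtsl1 at 0.04 ± 0.11.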

How the data were processed

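The deposited values are log2 signals per probe set that the authors made with RMA. The submitters' processing notes name Transcriptome Analysis Console and Affymetrix Expression Console, whose versions, like the genome build, were not given in the sources used here. Among 72688 probe sets were 65956 transcript clusters and 5222 negative controls. Clusters with 1 distinct symbol (30604) were named through the platform annotation, updated by Entrez identifier to RefSeq (GRCm38.p6), and the cluster with the highest mean was kept per gene, with no filter on dim genes. Of 46 RefSeq genes with a matching symbol, 44 were measured and 2 were not analysed here.

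Groups came from the sample titles. limma 3.58.1 in R 4.3.3 (lmFit, eBayes without trend, two-sided, no covariate) was fitted to all 30142 genes, with Benjamini-Hochberg adjustment over them and a threshold of 0.05. It was tested on simulated data, with shifts put only on genes averaging above 6. There it called 99% of genes shifted by 3 and 78% of those shifted by 1.5 on the log2 scale, with 5 false calls. The largest member difference was 0.64 in size, so the simulation does not tell how often differences like those reported here would be called. The number of arrays, 3 per group, limits precision. Each p-value sets a group difference against the spread between arrays of a group, which limma moderates over all genes. With 1 array per mouse that spread holds animal and technical variation together.

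Named were all Timp genes, the other members averaging above the highest 95th percentile of the negative controls, members with an unadjusted p below 0.05 or groups that did not overlap, and the 2 genes of smallest p per list. Members, lists and this rule were chosen with earlier results of these data known. Promoter windows came from RefSeq. Python 3.11.15, pandas 2.3.3 and matplotlib 3.10.9 made the tables and plots. Alternatives were 3 normalizations, 2 filters on dim genes, averaging over a gene's clusters, array weights, a prior with trend, blocking on replicate number, leaving out each array, testing all clusters, and a threshold of 0.1.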

Additional observations from a re-analysis of the deposited data

How the results depend on the processing

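In limma, 0 genes passed the adjusted threshold under each of the 17 alternatives, and the smallest adjusted p of the 22 members followed was 0.410 (Adamts1, among genes with a mean of at least 6). Members at an unadjusted p below 0.05 numbered 6 (7.81% of all genes). With single arrays left out they numbered 2 (without finerenone replicate 3, where all genes came to 9%) to 6 (without finerenone replicate 1, 6.26%). Among genes with a mean of at least 6, they numbered 3 of only 11 members tested, against 11.5% of all genes tested there. Over all genes the count was 2353, 1541 at or above the median signal and 1305 at a mean of at least 6, where fewer genes were tested, and 4138 over all 65956 clusters. Of the 2353 genes 72.9% were higher in treated hearts, against 59.2% after quantile normalization; members with a positive difference were 61.4%, and 50% without finerenone replicate 1. Signs held in all alternatives for 16 of the 22 members. Timp3 turned to -0.0446 after quantile normalization, -0.0156 after cyclic loess and -0.0036 with array weights. With single arrays left out, Timp3 ran from -0.16 to 0.32, Mmp2 from -0.18 to 0.33, Mmp3 from -0.0821 to 0.253, Mmp11 from -0.0036 to 0.0809, Adamts6 from -0.0909 to 0.13 and Adamts7 from -0.14 to 0.003; the cause was not tested. With the replicate number as a block, 0 genes passed and 4 of 44 members had an unadjusted p below 0.05, against 7.69% of all genes. Same-numbered arrays did not deviate together (correlations of -0.15 to 0.06, and 0 of 6 arrays correlated best with their own number), so the numbers were not taken as pairs. Signal over background limits what can be said of the 26 members not above the control medians.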

Other observations

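Several genes outside the 3 families placed finerenone replicate 1 with or next to the untreated arrays and the other treated arrays further below, in the way seen for Adamts1 (9.42, 8.88 and 8.86 in treated hearts, against 9.55 to 9.73 in untreated hearts). Adam19, a metalloprotease of the developing heart, had 7.53, 6.34 and 6.47 in treated hearts, against 7.32 to 7.54 in untreated hearts. Col4a1, the partner chain of Col4a2, had 8.27, 7.17 and 7.48 in treated hearts, against 7.98 to 8.38 in untreated hearts. Pdgfrb had 9.53, 9.04 and 9.02 in treated hearts, against 9.68 to 9.87 in untreated hearts. These genes were picked after their values were seen, and the resemblance was not tested.

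Plasminogen (Plg), the liver-made precursor of plasmin, had 3.83, 3.84 and 3.83 in treated hearts, against 6.18, 3.93 and 3.88 in untreated hearts. The difference of -0.83 ± 0.60 (SE; limma adjusted p = 0.787) rested on untreated replicate 1. Serpina3n, an acute-phase protease inhibitor, ranged widely in both groups, with 8.49, 9.89 and 9.99 in treated hearts, against 9.74, 8.73 and 8.17 in untreated hearts.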
